A study of Mus musculus with 4 samples.

Results

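DNA replication genes encode the enzymes and scaffold proteins that copy the genome in S phase, and 39 of them were followed here in single thymic regulatory T cells (Treg cells) of mice. They form a named list of genes grouped by function, whose rule sets no threshold on measured values, and all 39 were found among the 27998 genes of the deposited count table. The study measured gene expression in single cells with a Chromium 3′ kit (version 2), which tags each captured transcript with a unique molecular identifier (UMI). Its 4 samples were 1 each of Treg cells from mice labelled IL2 wt/wt, IL2 o/o, IL15 wt/wt and IL15 o/o, on a B6 background and 3 weeks old, where the titles call the o/o mice knockouts. All 4 groups carried the same pair of reporters: Rag2-Gfp, whose fluorescence marks recently formed thymocytes, and Foxp3-Thy1a, which puts Thy1.1 on cells that express Foxp3, the Treg master regulator. The sort took CD4+ CD8- cells positive for Thy1.1 and GFP, a gate that keeps cells with recent expression of Rag2.

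The count table holds 8273 cells and 33232250 UMIs, in 4 libraries told apart by the number at the end of each cell barcode. None of the labels ties a barcode number to a genotype, so the libraries are called 1 to 4, no genotype was compared, and each library's value is given. Libraries 1 to 4 held 1609, 2452, 2037 and 2175 cells with median UMI counts of 3857, 3640, 2501 and 3019. Cells are not replicates, so no p-value is given, and intervals cover counting error only. Of 8246 distinct barcodes, 27 occurred in 2 libraries. A second deposited table, labelled G1, lists 7231 of the cells, and the other 1042 cells were outside it.

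Before S phase, Cdc6 and Cdt1 load the hexameric MCM helicase onto origins, a step called licensing. When S phase starts, Cdc45 and the GINS complex join the helicase to form the CMG, primase and DNA polymerases copy the strands, and the PCNA clamp, loaded by replication factor C, holds the polymerases on DNA. The single-strand binding protein RPA covers the unwound DNA, Fen1 and Lig1 join the lagging-strand fragments, and the chromatin assembly factor puts histones on the new DNA. Many of these genes are targets of E2F transcription factors, which are freed from the retinoblastoma protein at the passage from G1 to S. Thymic Treg cells and their precursors depend on IL-2 and, in part, IL-15, and Il2ra encodes the alpha chain of the IL-2 receptor (CD25).

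To show the regulatory sequence at the starts of members at both ends of the first comparison, 4 promoters are printed below, from RefSeq on build GRCm38.p6. Each runs from 250 bases before to 50 bases after a gene's start, 5′ to 3′ on the gene's own strand. Capitals mark an E2F-type match, defined as TTTGGCGC, TTTCGCGC, TTTCCCGC or TTTGCCGC on either strand. Pclaf and Rrm2 had the largest excess outside the G1 table, Ung the largest deficit, and Mcm6 was among the helicase genes with the smallest excess.
Pclaf, chr9:65890073-65890372, plus strand: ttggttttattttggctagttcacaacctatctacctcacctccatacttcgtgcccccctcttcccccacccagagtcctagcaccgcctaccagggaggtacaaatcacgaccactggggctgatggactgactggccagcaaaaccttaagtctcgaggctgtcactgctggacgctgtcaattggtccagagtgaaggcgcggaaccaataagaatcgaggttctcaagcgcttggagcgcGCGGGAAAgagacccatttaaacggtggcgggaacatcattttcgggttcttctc
Mcm6, chr1:128359656-128359955, minus strand: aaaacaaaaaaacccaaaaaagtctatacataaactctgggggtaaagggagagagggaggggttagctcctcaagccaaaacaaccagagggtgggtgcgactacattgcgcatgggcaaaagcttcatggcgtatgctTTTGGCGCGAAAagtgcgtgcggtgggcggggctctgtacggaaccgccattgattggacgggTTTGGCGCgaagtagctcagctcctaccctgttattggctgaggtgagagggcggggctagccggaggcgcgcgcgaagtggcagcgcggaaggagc
Rrm2, chr12:24708004-24708303, plus strand: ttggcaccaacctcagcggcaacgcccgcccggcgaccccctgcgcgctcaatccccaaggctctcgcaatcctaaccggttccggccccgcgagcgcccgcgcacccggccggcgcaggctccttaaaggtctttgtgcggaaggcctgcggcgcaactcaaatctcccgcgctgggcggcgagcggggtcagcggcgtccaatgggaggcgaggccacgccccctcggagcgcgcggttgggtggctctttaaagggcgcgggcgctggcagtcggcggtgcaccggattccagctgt
Ung, chr5:114130185-114130484, plus strand: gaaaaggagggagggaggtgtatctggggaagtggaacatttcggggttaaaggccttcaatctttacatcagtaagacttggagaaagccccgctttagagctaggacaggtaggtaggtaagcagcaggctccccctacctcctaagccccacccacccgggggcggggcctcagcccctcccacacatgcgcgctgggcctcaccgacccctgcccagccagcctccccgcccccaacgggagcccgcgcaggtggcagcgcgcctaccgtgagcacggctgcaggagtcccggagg
By the GENCODE M21 annotation of the same build, all 4 genes code for proteins, at chr9:65890237-65903266 (Pclaf), chr1:128331590-128359664 (Mcm6), chr12:24708241-24714146 (Rrm2) and chr5:114130386-114139323 (Ung). Mcm6 held 3 matches, of which the first 2 overlap, and Pclaf held 1. The Rrm2 and Ung windows held none of these letters. Over the list, 15 of the 34 members with a window (44.1%) had such a match: Cdc6, Cdt1, Mcm3, Mcm5, Mcm6, Mcm7, Pclaf, Dtl, Pola1, Pold1, Rfc3, Lig1, Uhrf1, Hells and Cdca7. The share was 2.61% of 27025 genes with a window, 5.38% of the 6467 genes that also had 200 or more UMIs here, and 34.4% of 32 other replication genes. By contrast 1 of 17 mitosis genes (5.88%) had one. A pair of other motifs was more frequent in the mitosis genes than in the members. The CHR element TTTGAA, known from genes expressed in G2 and mitosis, was in 8.82% of members and 70.6% of the mitosis genes, against 14.6% of the genes with 200 or more UMIs. CCAAT was in 61.8% of members, 88.2% of the mitosis genes and 43.7% of the genes with 200 or more UMIs. Both were searched on both strands, and a match is a description of letters, not a measured site. Median GC content was 63.2% in the members' windows and 62.3% in those of the genes with 200 or more UMIs.

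In the whole libraries, the 39 genes together took 0.245%, 0.276%, 0.105% and 0.235% of the UMIs of libraries 1 to 4. As summed levels in UMIs per 1000000 (CPM), these were 2447 (95% exact Poisson interval 2413 to 2482), 2762 (2732 to 2793), 1053 (1026 to 1079) and 2349 (2317 to 2382). Library 3 was lowest for 39 of 39 members, and for 35 its interval lay below those of the other libraries (all but Cdt1, Pola1, Pole and Dtl). The same counts were not made over all genes, so whether they are particular to the members was not tested. Library 2 was highest for 36, library 1 for Pole and Prim1, and library 4 for Dtl. The highest library was 2.62-fold above the lowest for the sum, and 1.18-fold without library 3.

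The size of that gap differed by gene. Rrm2, the regulated subunit of ribonucleotide reductase, which makes deoxyribonucleotides, was at 106, 128, 19.2 and 91.6 CPM in libraries 1 to 4, a 6.66-fold range. Cdc6, a licensing factor, was at 9.89, 10.3, 1.75 and 9.22 CPM (5.88-fold), and Pclaf, the PCNA-associated factor, at 190, 210, 37.9 and 169 CPM (5.55-fold). For all 3, libraries 1, 2 and 4 lay close together and library 3 apart. Mcm10, which helps to activate the loaded helicase, had the widest range of all, 5.07, 7.10, 0.87 and 6.11 CPM, but from only 176 UMIs. At the other end, Dtl, the substrate receptor of a PCNA-coupled ubiquitin ligase that degrades Cdt1, was at 35.4, 37.1, 32.0 and 37.8 CPM (1.18-fold), with overlapping intervals. Rpa3 and Rpa2, the small RPA subunits, ranged 1.501-fold and 1.59-fold, and Rfc2, a clamp loader subunit, 1.65-fold. Library 3 also had the fewest UMIs per cell and a mitosis-gene sum of 140 CPM, against 1106, 1297 and 1005 in libraries 1, 2 and 4, and Il2ra was at 31.1 CPM against 181, 181 and 158. With cells thinned to 1 depth (described with the G1 table), the summed range was 2.33-fold, and 0.459% of its cells in the G1 table had 10 or more member UMIs, against 4.26%, 6.76% and 4.89% in libraries 1, 2 and 4. Whether genotype had a part in its low level was not tested.

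**Figure D1:**
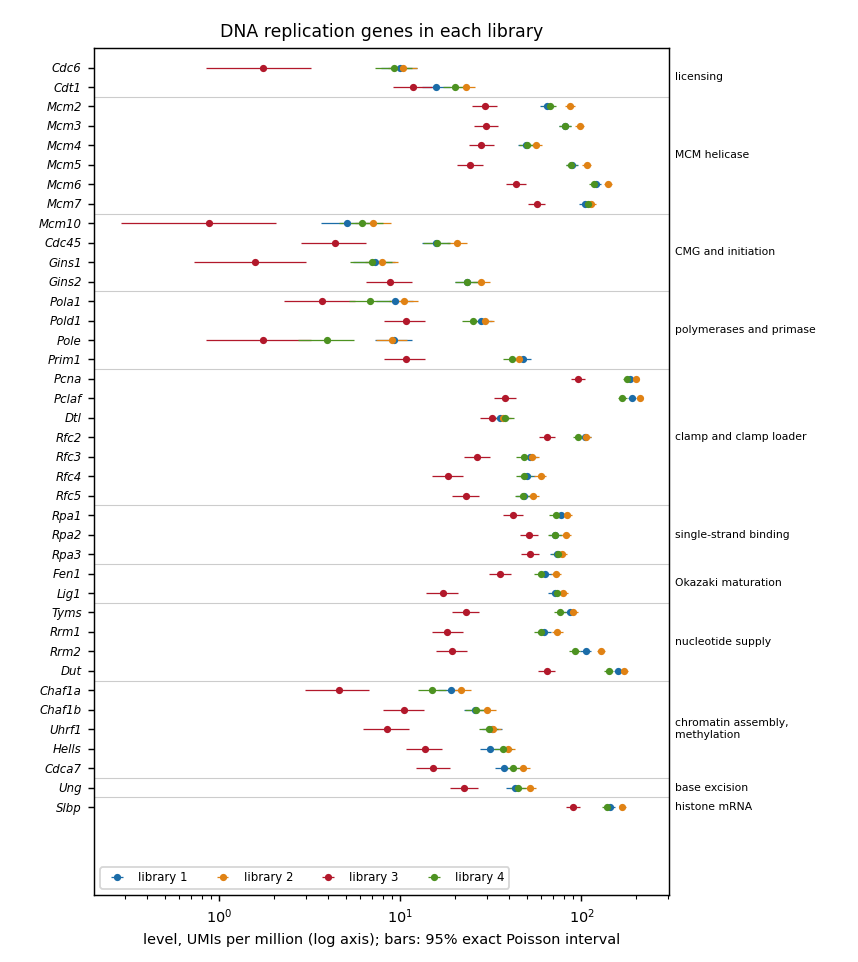
Level of each of the 39 members in the 4 libraries, in UMIs per 1000000 on a log axis, with 95% exact Poisson intervals and roles at the right. Library 3 lies lowest in every row, by the most for Mcm10 and Rrm2 and by the least for Dtl.

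Most cells had transcripts of the labelled cell type, with a UMI of the T cell markers in 8261 of 8273 cells and of the Treg markers in 7998. Of 5 measured T cell markers and 10 Treg markers none was at 0, with summed levels of 3621 to 4289 and 3178 to 4462 CPM. Foxp3 itself was captured thinly, at 12.6 to 14.3 CPM. B cell markers summed to 10.1 to 20.4 CPM with Pax5 at 0, and myeloid markers to at most 5.25 CPM with Csf1r, Itgax and Cd14 at 0. Of the erythroid markers' 10813 UMIs, 10422 came from 1 cell of library 3. Thymic epithelial markers summed to 15.1 to 18.4 CPM with Foxn1 at 0. NK, NKT and gamma delta markers were higher, at 200, 168 and 115 CPM in libraries 1, 2 and 4, and lower in library 3. Of their 4632 UMIs, 4627 were of Nkg7, found in 1173 cells, and Ncr1 was at 0. Whether the Nkg7 UMIs came from cells other than Treg cells was not tested. Double-positive thymocyte markers, all 9 of them detected, summed to 87.6, 96.4, 151 and 143 CPM, and 307 cells had a UMI of Rag1, Dntt or Cd8a.

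The first comparison set the 1042 cells outside the G1 table against the 7231 in it. The sources used here do not say how the submitters assigned the phase, and phase callers often read replication genes, so the contrast describes their selection and is not an independent test of it. The members stood higher outside the table as a group. The sum of all 39 was at 5438, 5536, 2253 and 4989 CPM outside in libraries 1 to 4, and at 1713, 2104, 933 and 1878 CPM inside. In no library did the intervals of the pair touch. The ratio, combined over libraries by the Mantel-Haenszel method, was 2.77-fold (2.73 to 2.81), and by library 3.17, 2.63, 2.41 and 2.66. To be called, a gene needed 200 UMIs or more over all cells, a ratio of 1.5-fold or more whose interval excluded 1, and the same direction in every library that had 20 or more cells on both sides. Of the 38 members with enough UMIs, 33 were called higher, against 7.36% of 8071 genes, and 1 lower, against 3.48%. The members' median log2 ratio was 1.28, and that of all genes tested was -0.05. Mcm2, Mcm4, Mcm6 and Cdca7 were not called in either direction.

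Nucleotide supply genes had the largest excess, with 4 of 4 called. Rrm2 was at 28.9, 43.5, 5.96 and 38.4 CPM in the G1 table and at 418, 485, 153 and 390 CPM outside it, an 11.9-fold ratio (log2 interval 3.46 to 3.69). Every outside value exceeded every inside value, even that of library 3. Rrm1, the large reductase subunit, was 5.79-fold higher and Dut, which removes dUTP, 2.57-fold. Tyms, thymidylate synthase, was at 41.4, 44.0, 15.0 and 42.1 CPM inside and 268, 281, 103 and 268 CPM outside (6.42-fold).

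Among clamp and clamp loader genes 7 of 7 were called, from 1.61-fold for Rfc3 to 11.5-fold for Pclaf. Pclaf was at 53.7, 71.5, 14.8 and 73.5 CPM inside and at 744, 796, 271 and 700 CPM outside. The clamp itself, Pcna, was at 131, 160, 88.3 and 153 CPM inside and 404, 370, 172 and 324 CPM outside, a smaller 2.43-fold ratio. The table also lists the processed copy Pcna-ps2, with 284 UMIs, and how reads were divided between the copies is not stated. Polymerase and primase genes were called in 4 of 4 cases. Pola1, the catalytic subunit of polymerase alpha, was 5.07-fold higher, Pole 3.80-fold, Prim1 3.59-fold and Pold1 2.77-fold. Prim1, the primase subunit, was at 30.3, 31.1, 7.69 and 30.2 CPM inside and 117, 105, 40.65 and 104 CPM outside, again with no overlap.

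The helicase genes differed among themselves. The 6 genes Mcm2 to Mcm7 make 1 ring, and 3 of them were called: Mcm5 (2.11-fold), Mcm7 (2.06-fold) and Mcm3 (1.58-fold). Mcm6 was at 111, 133, 42.7 and 112 CPM inside and 160, 166, 50.3 and 149 CPM outside, a 1.32-fold ratio, and Mcm4 was at 1.36-fold. Mcm2 was at 59.0, 84.5, 27.9 and 62.7 CPM inside and 88.8, 95.3, 42.6 and 89.3 CPM outside (1.30-fold). The excess of all 3 was in the same direction in each library but under the fold required. The genes that turn the ring into an active helicase had larger ratios, at 4.05-fold for Cdc45, 2.70-fold for Gins1 and 2.01-fold for Gins2, all called. Gins2 was at 19.4, 22.9, 8.075 and 20.9 CPM inside and 39.2, 49.5, 15.5 and 36.4 CPM outside. Licensing factors were both called, Cdc6 at 3.41-fold and Cdt1 at 2.01-fold. Cdt1 was at 12.9, 19.5, 11.2 and 16.8 CPM inside and 27.0, 37.5, 17.4 and 37.9 CPM outside, so the library 3 value outside fell within the range of the inside values.

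The 3 RPA genes were each called, with low ratios of 1.69-fold to 1.84-fold. Rpa1 was at 65.7, 73.4, 39.4 and 66.9 CPM inside and at 126, 127, 65.8 and 100 CPM outside. Fen1, the flap endonuclease, was 2.69-fold higher. Lig1, the replicative ligase, was at 45.1, 55.9, 14.6 and 53.1 CPM inside and 177, 177, 42.6 and 186 CPM outside (3.44-fold). Of 5 genes of chromatin assembly and DNA methylation maintenance, 4 were called: Uhrf1 (4.27-fold), which brings the maintenance methyltransferase to new DNA, Chaf1a (3.61-fold), Hells (2.13-fold) and Chaf1b (1.76-fold). Cdca7, an activator of the remodeller encoded by Hells, was at 35.2, 47.1, 12.7 and 40.0 CPM inside and 45.7, 50.4, 40.65 and 51.4 CPM outside, and its 1.25-fold ratio came with the widest gap in library 3. Slbp, which binds the stem-loop of histone mRNA, was at 106, 131, 82.9 and 119 CPM inside and 300.4, 323, 157 and 244 CPM outside (2.42-fold).

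Ung went the other way. It encodes uracil-DNA glycosylase, which removes uracil from DNA, and was at 47.2, 57.5, 23.3 and 49.3 CPM in the G1 table and at 25.1, 27.3, 15.5 and 19.8 CPM outside it. The outside level was 0.48-fold (log2 interval -1.31 to -0.79), and lower in 4 of 4 libraries.

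**Figure D2:**
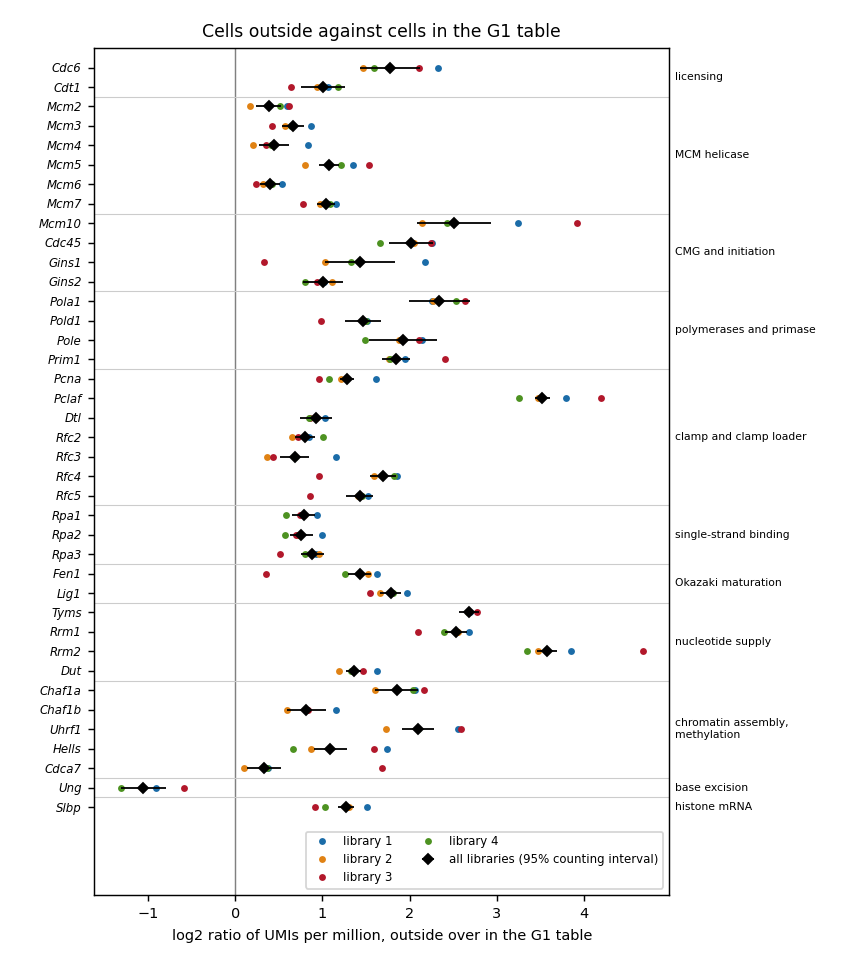
Log2 ratio of each member's level outside over inside the G1 table, with all libraries combined (diamonds, 95% counting interval) and each library (dots). Rrm2 and Pclaf lie at the far right, the ring subunits Mcm2, Mcm4 and Mcm6 near 0, and Ung alone left of 0 in all 4 libraries.

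Depth and cell quality moved with this contrast. Median UMIs per cell inside and outside were 3848 and 3994 in library 1, 3598 and 4487 in library 2, 2592 and 1470 in library 3, and 3016 and 3179 in library 4. The mean mitochondrial share was 2.17% to 2.37% inside and 3.43% to 6.19% outside. Double-positive thymocyte markers were at 96.4, 95.3, 118 and 126 CPM inside and 51.5, 101, 478 and 235 CPM outside, and Treg markers at 4203, 4581, 3192 and 4246 CPM inside and 3089, 3961, 3035 and 3297 CPM outside. In library 3, 5 cells held 56.3% of the member UMIs outside the table, against 8.87% to 15.7% in the other libraries. When cells were compared only within deciles of UMIs per cell, the sum was 1.61-fold higher outside (1.58 to 1.63), and 17 of 38 members were called higher, against 5.91% of genes, with Ung again lower at 0.27-fold. The 17 included Rrm2 (5.18-fold), Pclaf (4.85-fold), Pola1 (3.09-fold), Rrm1 (3.05-fold) and Tyms (3.00-fold) but none of the Mcm2 to Mcm7 genes. For 6 of the 38 the ratio within deciles was below 1. Besides Ung these were Mcm3, which had been called higher and was now at 0.87-fold, and the members not called before, Mcm2 (0.79-fold), Mcm4 (0.90-fold), Mcm6 (0.73-fold) and Cdca7 (0.70-fold). The intervals of all but Mcm4 lay below no change. Without cells that had a UMI of Rag1, Dntt or Cd8a, the sum was 2.77-fold higher and 27 members were called. Without the 5% of cells with most UMIs, it was 2.76-fold higher, and 33 members passed the fold and interval but only 15 went the same way in each library. Without library 3, it was 2.79-fold higher and 33 were called. For these alternatives that left out cells or a library, the share called over all genes is not given. Whether the changes in count are particular to the members was not tested.

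The G1 table was not free of cells rich in these transcripts. To put cells at 1 depth, each was thinned to 1811 UMIs, which left out 826 shallower cells of 8273. Cells inside the table then had a median of 1 member UMI in each library and means of 2.15, 2.72, 1.38 and 2.36, and cells outside had medians of 3, 4, 1 and 4 and means of 7.12, 8.06, 2.89 and 6.91. Of 513 cells with 10 or more member UMIs, 287 (55.9%) were in the G1 table and 226 outside. Of those 287, 206 had at most 1 UMI of the 21 mitosis genes, and of the 226 only 12 did. The bound of 10 was set after the data were seen, and it is a point on a range: 133 cells had 8 or 9 member UMIs and 97 had 10 or 11.

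Ordering the thinned cells by their mitosis-gene UMIs showed how the members were spread. These bins too were set after the data were seen. In cells with 0, 1, 2 to 4, 5 to 9 and 10 or more mitosis UMIs, the mean number of member UMIs was 1.86, 3.30, 11.6, 15.0 and 9.86, in 6255, 645, 148, 133 and 266 cells. Libraries 1, 2 and 4 gave the same shape without library 3, which had 6, 5 and 3 cells in the last 3 bins: 2.03, 3.53, 11.5, 14.7 and 9.87. The share of cells in the G1 table over the same bins was 94.5%, 91.8%, 73.6%, 27.1% and 1.504%. By point value, 27 members were highest at 5 to 9 mitosis UMIs and 3 at 10 or more (Mcm10, Pold1 and Pole). Another 9 were highest at 2 to 4 (Cdt1, Gins1, Gins2, Dtl, Rfc3, Rpa2, Chaf1b, Uhrf1 and Ung). Some maxima were near ties between 2 to 4 and 5 to 9, such as Mcm4 (104 and 108 CPM) and Dtl (93.3 and 91.3 CPM). No such count was made over all genes, so whether it is particular to the members was not tested.

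Single members had different profiles. Ung was at 22.2, 49.7, 119, 37.4 and 10.4 CPM over the 5 bins. Its last value rests on 5 UMIs, and its interval (3.37 to 24.2 CPM) overlapped that of cells with no mitosis UMIs (19.5 to 25.1 CPM). Cdt1 was at 11.1, 20.5, 82.1, 41.5 and 24.9 CPM, by point value also highest at 2 to 4. Its interval there (51.4 to 124 CPM, from 22 UMIs) overlapped that at 5 to 9 (19.9 to 76.4 CPM, from 10 UMIs). Cdca7 (19.3, 28.3, 108, 129 and 33.2 CPM) and Mcm6 (54.6, 105, 287, 303 and 129 CPM) kept up through the fourth bin and were lower in the last. Rrm2 in contrast was at 7.42, 35.1, 366, 569 and 540 CPM, with its last 2 values almost equal, and Pclaf at 9.45, 70.2, 608, 1104 and 826 CPM. By point value, 27 of 39 members were higher at 2 to 4 mitosis UMIs, where 73.6% of cells were in the table, than at 10 or more. They were 22 of the 33 called higher outside the table, Ung, and the 4 that were tested and not called. These values are pooled over libraries, and the bins with 148 and 133 cells are thin for the members with few UMIs, such as Pole. This comparison of bins was not made over all genes either.

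**Figure D3:**
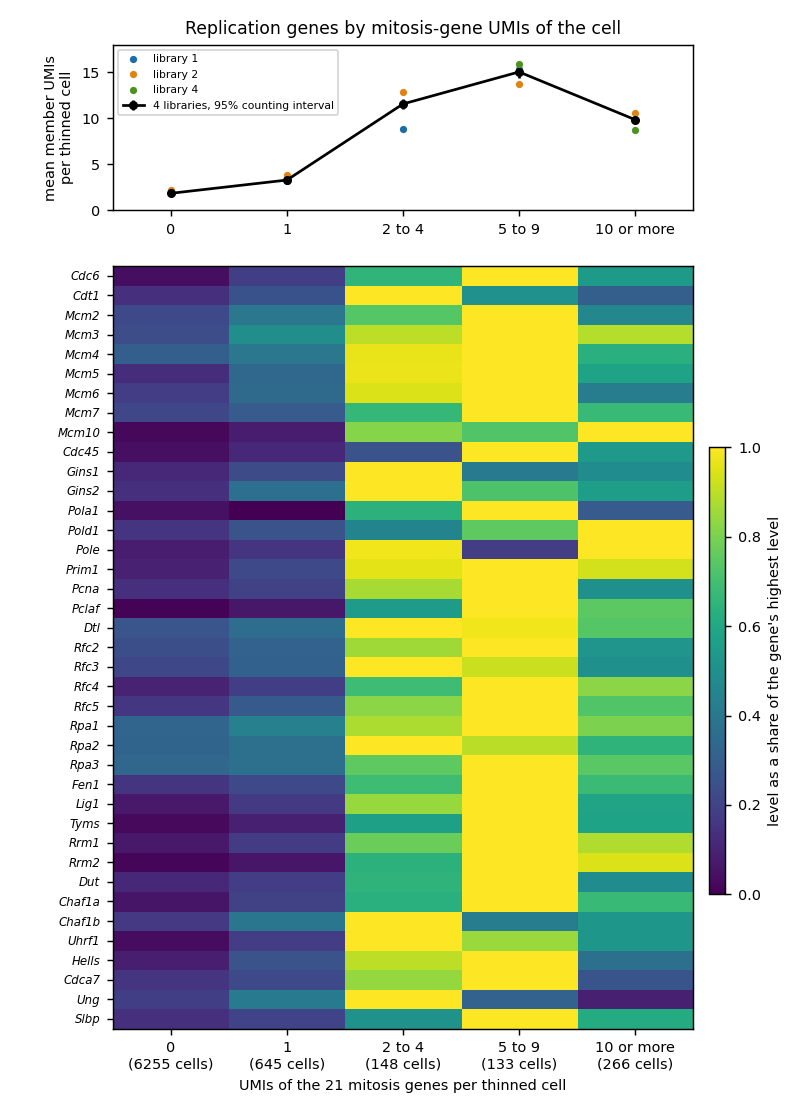
Top: mean member UMIs per cell thinned to 1811 UMIs, by the cell's UMIs of 21 mitosis genes, for all libraries (line, 95% counting interval) and libraries 1, 2 and 4 (dots). Bottom: level of each member in the same bins as a share of its own highest level. By point value, most members are highest at 5 to 9 mitosis UMIs, while Ung and Cdt1 are highest at 2 to 4.

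The genes whose UMIs followed the members across thinned cells were sought by the mean over libraries of the within-library Pearson correlation with the members' summed UMIs, over 8060 genes. It was 0.22 in the median member (0.09 to 0.43) and 0.00 in the median gene, and 20 members were among the 60 highest. Pclaf was the closest member at 0.43, after Stmn1 (0.47), which binds tubulin, and Tuba1b (0.45), a tubulin. The other non-members among the nearest 10 were Hist1h2ap (0.41), Ptma (0.38), Hmgb2 (0.38), Top2a (0.37), Asf1b (0.33), Birc5 (0.31), H2afz (0.31) and Tipin (0.31). Asf1b is a histone chaperone and Tipin a fork protection factor. All cells of a library share its preparation, and the correlations were lower in library 3 than in the others for each of these genes, for example 0.21 against 0.51 to 0.58 for Stmn1.

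Most other replication genes with enough UMIs were also higher outside the G1 table. Of 39 listed, 33 had enough UMIs, 20 were called higher and 0 lower, with a median log2 ratio of 1.04. Asf1b (8.74-fold) and Clspn (5.75-fold), which carries the checkpoint signal at forks, led them, and Pold4 was at 0.72-fold. Of 16 other nucleotide supply genes 5 were called higher, among them Tk1, thymidine kinase (8.44-fold), with a median of 0.35. Within deciles of UMIs their median was below 0, at -0.21, with Tk1 (3.62-fold) and Dck, deoxycytidine kinase (1.74-fold), called higher and Dctd (0.55-fold), Shmt1 (0.60-fold) and Shmt2 (0.64-fold) called lower. The other replication genes then had 10 called higher and a median of 0.51. Of 19 regulators of the passage from G1 to S, 7 were called higher, led by Cdkn2c, a CDK inhibitor (18.8-fold), and Ccne2, a cyclin E (5.17-fold), and Ccnd2, a D cyclin, was lower (0.54-fold). The 21 mitosis genes were all called, with a median of 5.08. Beside these lists, 7.36% of all genes tested were called higher and 3.48% lower, and 5.91% and 3.67% within deciles.

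The next comparison asked whether cells with captured Il2ra transcript differ in these genes, since IL-2 is a growth factor for Treg cells. At least 1 Il2ra UMI was found in 2437 cells (29.5%), in 39.2% (95% exact binomial interval 36.8% to 41.6%), 39.4% (37.5% to 41.4%), 6.82% (5.77% to 8.01%) and 32.2% (30.3% to 34.2%) of the cells of libraries 1 to 4. Detection followed depth: median UMIs with and without Il2ra were 4886 and 3324, 4728 and 3109, 3061 and 2460, and 3915 and 2704. After thinning, the shares were 22.4%, 23.0%, 5.18% and 20.8%. Among the 307 cells with a UMI of Rag1, Dntt or Cd8a, as would mark double-positive thymocytes, which largely lack CD25, the share was 31.6% at a median of 4320 UMIs, and 15.8% when thinned. A UMI of Rag1, Dntt or Cd8a can itself be free RNA in the droplets. This share therefore cannot tell whether a UMI of Il2ra came from the cell or from free RNA.

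At face value each of the 38 members with enough UMIs was higher in cells with Il2ra. The sum of all 39 was at 2974, 3177, 1862 and 2886 CPM with Il2ra in libraries 1 to 4, and at 1934, 2354, 967 and 1965 CPM without. The ratio was 1.45-fold (1.43 to 1.47), and by library 1.54, 1.35, 1.93 and 1.47. Of the 38 members 19 were called higher, against 3.97% of 8070 genes, and 0 lower, against 3.1%, with a median log2 ratio of 0.58 against -0.03 for all genes. Ung led, at 54.4, 64.6, 71.3 and 60.6 CPM with Il2ra and 31.5, 39.0, 17.4 and 33.5 CPM without (1.80-fold). Chaf1a, the large subunit of the chromatin assembly factor, was at 25.7, 25.6, 12.8 and 21.2 CPM against 12.5, 17.6, 3.67 and 10.5 CPM (1.77-fold). Pola1 was at 12.1, 11.99, 10.97 and 10.6 CPM against 6.76, 8.97, 2.90 and 4.11 CPM (1.75-fold). In these 3 genes each library had the higher value with Il2ra.

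By role, the polymerases and primase had 4 of 4 members called, chromatin assembly and methylation maintenance 4 of 5, nucleotide supply 3 of 4, and the helicase 2 of 6 (Mcm5 and Mcm6, 1.59-fold and 1.60-fold). Licensing and single-strand binding had 0 of 2 and 0 of 3. The lowest ratios were those of Rpa1, at 83.7, 87.0, 40.2 and 77.0 CPM with Il2ra and 71.6, 80.4, 42.0 and 68.4 CPM without (1.11-fold), of Rfc2, at 115, 110, 96.9 and 102 CPM against 95.3, 104, 61.1 and 91.0 CPM (1.14-fold), and of Rpa3, at 82.2, 83.7, 65.8 and 83.6 CPM against 63.8, 72.8, 50.7 and 67.6 CPM (1.22-fold). For Rpa1 the direction was reversed in library 3. Mitosis genes were also higher with Il2ra, at 1471, 1494, 203 and 1281 CPM against 749, 1104, 134 and 808 CPM, and Treg markers at 4674, 5264, 4665 and 4952 CPM against 3311, 3674, 3020 and 3494 CPM. Double-positive thymocyte markers were at 91.9, 75.1, 282 and 77.8 CPM with Il2ra and 83.3, 117, 137 and 189 CPM without, and their part in the result was not tested.

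Within deciles of UMIs per cell, no excess was left. The summed ratio was 0.91-fold (0.90 to 0.93), with 0 of 38 members called in either direction, against 1.41% of genes higher and 0.83% lower, and 33 of 38 ratios lay below 1. Rrm2 and Pclaf, at 1.47-fold and 1.63-fold before, were at 0.74-fold and 0.80-fold. Ung was at 1.12-fold with a log2 interval of 0.01 to 0.33, the only member of the 38 whose interval lay above 0. After thinning, with Il2ra detection also taken from the thinned counts, the sum was at 0.98-fold and 0 members were called. Without the 5% of cells with most UMIs and with no depth strata, it was at 1.21-fold with 0 called, and with 2 or more Il2ra UMIs required 3 were called. The share called over all genes is not given for these alternatives or for the thinned cells. Libraries 1, 2 and 4 were at 0.96-fold, 0.85-fold and 0.92-fold within deciles, and library 3 at 1.41-fold. In library 3, 5 of the 139 cells with Il2ra held 562 of their 1018 member UMIs (55.2%), where the 5 leading cells held 5.51% to 10.4% in the other libraries. Without the 5% of cells with most UMIs, an alternative by library added after the data were seen, library 3 was at 0.89-fold (0.77 to 1.02), and the others at 0.92-fold, 0.83-fold and 0.90-fold.

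**Figure D4:**
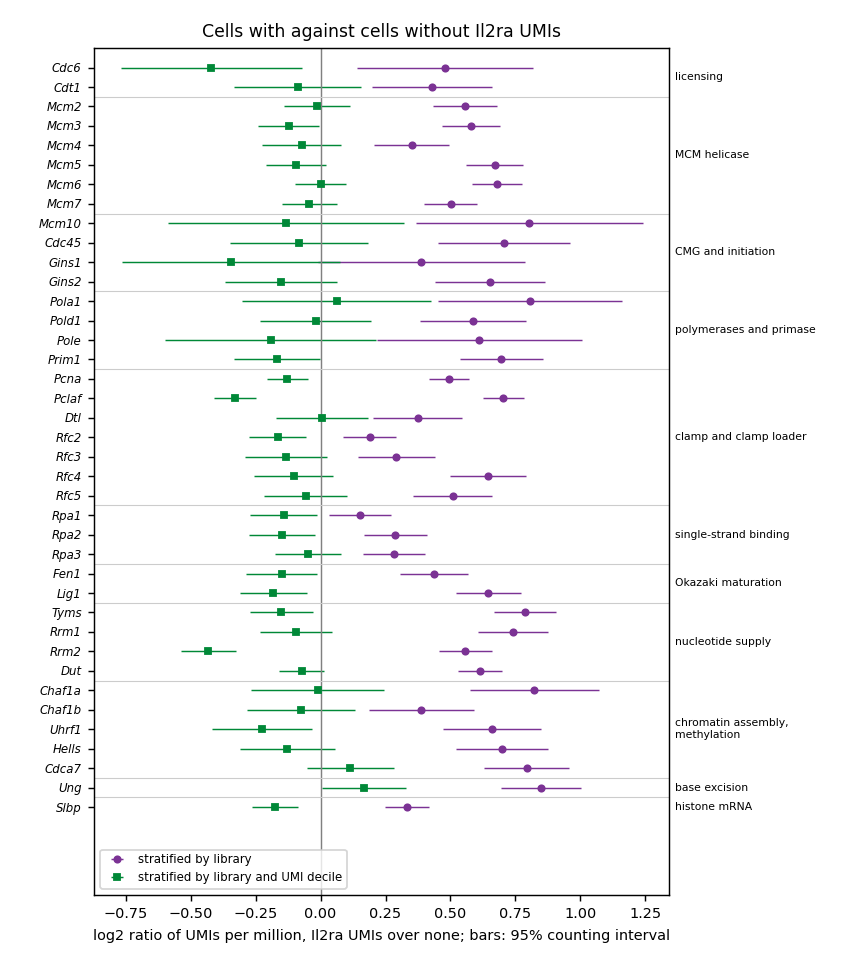
Log2 ratio of each member in cells with over cells without Il2ra UMIs, combined over libraries (circles) and over libraries and deciles of UMIs per cell (squares), with 95% counting intervals. The circles lie right of 0 and the squares around or left of it.

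The members' level was itself tied to the depth of the cell. In deciles 1 to 7 of UMIs per cell, the summed level over all cells of a decile ranged from 661 to 1173 CPM over the 4 libraries. In the deepest decile it was 5512, 5512, 2214 and 5331 CPM, and in the ninth 3019, 4122, 708 and 2251 CPM. Within the deepest decile, cells with Il2ra were at 5580, 5259, 3263 and 5130 CPM and cells without at 5350, 6146, 1947 and 5680 CPM. By point value the order thus differed between libraries. In library 1 the intervals overlapped (5460 to 5702 and 5170 to 5535 CPM), and the library 3 value with Il2ra rests on 35 cells. Cells with Il2ra made up 14.9%, 15.9%, 1.47% and 9.63% of the shallowest decile and 68.1%, 70.2%, 17.2% and 62.2% of the deepest. Cells rich in replication transcripts were thus also those with most RNA captured, and strata of depth divide the cells by the members' own level as well. Possible doublets among the deepest cells were not called.

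**Figure D5:**
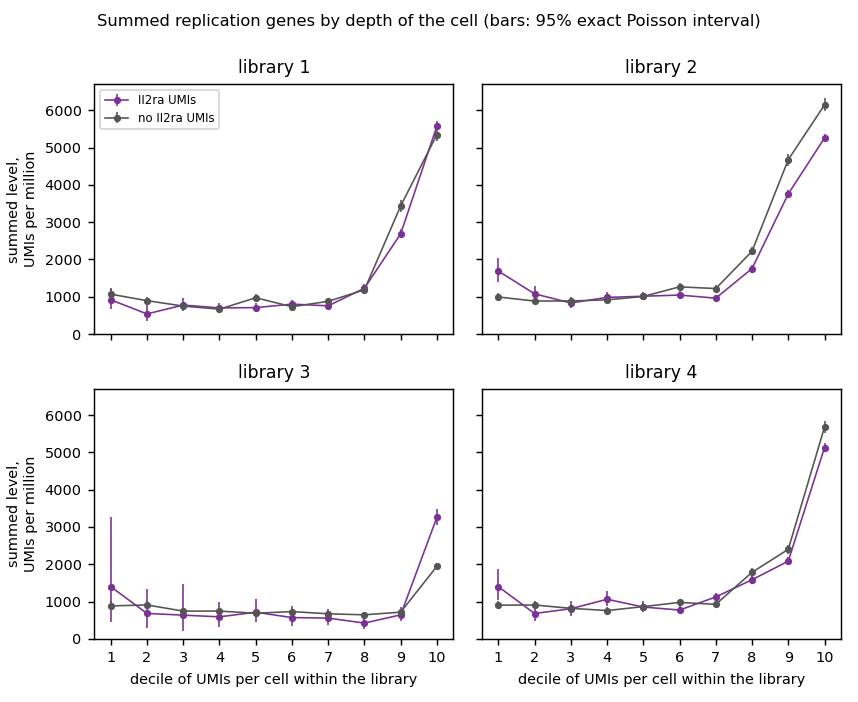
Summed level of the 39 members in UMIs per 1000000 by decile of UMIs per cell, for cells with (purple) and without (grey) Il2ra UMIs in each library, with 95% exact Poisson intervals. The level is at most 1690 CPM in deciles 1 to 7 and highest in the deepest decile. There the order of the groups differs between libraries by point value, with overlapping intervals in library 1.

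The comparison was repeated in cells of the G1 table alone. The summed ratio with Il2ra was 1.495-fold (1.47 to 1.52), and 21 of 38 members were called higher, against 4.6% of genes. Within deciles of UMIs it was 0.95-fold (0.94 to 0.97), with 0 members called against 1.47% of genes higher and 0.929% lower. By library it was 1.07, 0.84, 1.64 and 0.94, so libraries 1 and 3 had an excess here, where over all cells library 3 alone had one. The library 3 value rests on 131 cells with Il2ra that held 876 member UMIs. In the G1 table, the ratios by library were not repeated without the cells with most UMIs. The log2 interval of library 1 was 0.04 to 0.16 in the table, and -0.10 to -0.02 over all cells. In the authors' normalized values of this table, on a scale of log2 with 1 added, 39 of 39 members had the higher mean in cells with Il2ra in each of libraries 1, 2 and 4, by 0.04, 0.05 and 0.04 in the median. In library 3, 29 had the higher and 10 the lower mean, with a median difference of 0.02. These values were not compared within deciles. The same counts were not made over all genes, so whether they are particular to the members was not tested. Outside the table, the sum was at 5611, 5833, 4622 and 5574 CPM with Il2ra and 5180, 5167, 2103 and 4486 CPM without. The library 3 value with Il2ra rests on 8 cells. These groups differed in depth, with median UMIs of 9425 and 3002, 7989 and 3098.5, 2498 and 1459, and 7952 and 2666. They were not compared within deciles.

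Lists of neighbouring pathways are given beside the members for the same contrast. For reference, 3.97% of all genes tested were called higher and 3.1% lower with Il2ra, and 1.41% and 0.83% within deciles. Of 14 tested genes of the IL-2 and STAT5 response, 6 were called higher with Il2ra and 7 within deciles of UMIs, among them Socs2, a feedback inhibitor (4.58-fold and 5.15-fold). Of 20 genes of ribosome biogenesis and MYC targets, 12 were called, and 7 within deciles, with Polr1b, a subunit of RNA polymerase I, at 2.63-fold and 2.13-fold. Of the 33 other replication genes 5 were called higher, with a median log2 ratio of 0.35 beside 0.58 in the members, and within deciles 0 higher and 1 lower (Gins3, 0.61-fold). The 16 other nucleotide supply genes had 10 called higher, led by Shmt1, the cytosolic serine hydroxymethyltransferase (2.60-fold), which alone was called within deciles (1.74-fold). The genes of these lists that were not called are not named. These lists were not set against the members by a test.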

How the data were processed

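The authors deposited 2 tables. The count table holds UMI counts per gene and cell, with whole numbers, and the submitters' processing notes name CASAVA 2.20, Cell Ranger 2.0.2, R 3.4.1 and build mm10. The second table holds log2 values for 7231 cells and 9571 genes, which the authors made from the counts divided by 1 factor per cell with 1 added. The sources used here do not say how phase, cell filter, factors and strand were set. Symbols came from a gene table and matched 27645 of 27998 gene IDs. Of the members, Mcm7, Cdc45, Gins2, Pole, Rfc2, Rfc4, Rfc5, Fen1, Lig1 and Chaf1a share exon bases with a gene on the opposite strand, and their counts are uncertain to that degree.

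Levels are UMIs per 1000000 of a cell group, with exact Poisson intervals. Contrasts are Mantel-Haenszel ratios stratified by library, with approximate 95% counting intervals, and the calling rule (200 UMIs, 1.5-fold, each library with 20 cells a side) is that of the report. The fits ran across all genes and were tried on simulated Poisson counts. The simulation shares the assumption of the counting intervals, so it cannot show how they hold where few cells carry many of the UMIs. Depth per cell ran from 795 to 32737 UMIs, so a member with few UMIs per library, such as Mcm10, is known only roughly. Cells were thinned to the 10th percentile of UMIs per cell (1811). No cell was filtered and no doublet caller was run. The alternatives were TMM factors (edgeR 4.0.16) and median-of-ratios scaling, other minimum counts (50 or none) and folds (2), strata of library and UMI decile, thinned cells, 2 or more Il2ra UMIs, and leaving out the 5% of cells with most UMIs, cells with Rag1, Dntt or Cd8a, cells with over 10% mitochondrial UMIs or under 500 genes, cells outside the G1 table, or each library. Values per library are named for the 3 members with the highest and the 3 with the lowest ratio in each contrast. They are also named for the member of each role with most UMIs. Non-members are named by the 10 highest correlations and by examples of the lists, not always from both ends of their ratios. The members and lists were chosen with earlier results of these data known. Analyses used Python 3.11.15, numpy 2.4.6 and scipy 1.17.1.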

Additional observations from a re-analysis of the deposited data

How the results depend on the processing

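The 33 members called higher outside the G1 table became 17 within deciles of UMIs per cell, and 15 without the 5% of cells with most UMIs, where 33 still passed the fold and interval but direction differed in a library. Leaving out a library gave 31 to 34. Their summed ratio of 2.77 became 2.82 with median-of-ratios scaling, 1.61 within deciles and 2.97 after thinning, and 2.62 to 2.87 leaving out a library. For the counts here and below, shares called over all genes are given only for the main and decile fits.

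For Il2ra, the 19 called members became 0 within deciles, after thinning, without the 5% of cells with most UMIs and at a fold of 2, and 3 with 2 or more Il2ra UMIs, and were 17 to 21 leaving out a library. The summed ratio of 1.45 became 1.48 with TMM and 1.47 with median-of-ratios scaling, 1.21 without the 5% of cells, 1.495 in the G1 table, 1.29 with 2 or more UMIs, and 1.42 to 1.53 leaving out a library. It fell below 1, at 0.91 within deciles and 0.98 after thinning. In G1-table cells, 1.495 became 0.95 and 0.99 (both below 1), 1.22, and 1.46 without cells with Rag1, Dntt or Cd8a. It was 1.34 with 2 or more UMIs, and 1.46 to 1.59 leaving out a library. Single genes were followed for 15 members. Of all 38 tested, 33 were below 1 within deciles. Among the 15, log2 ratios of called genes changed sign within deciles, to -0.011 (Chaf1a), -0.073 (Dut), -0.15 (Gins2), -0.18 (Lig1) and -0.17 (Prim1). After thinning they changed sign to -0.42 (Chaf1a), -0.033 (Lig1), -0.19 (Prim1) and -0.13 (Ung). A change of sign alone is not a lower level. The decile intervals of Dut (-0.16 to 0.01) and Gins2 (-0.37 to 0.06) included 0, and those of Lig1 (-0.31 to -0.05) and Prim1 (-0.33 to -0.002) did not.

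The range between libraries, 2.62, was 2.25 in the G1 table, 2.46 outside it, 2.33 after thinning, 2.22 as a mean over cells, 3.02 without the 5% of cells, 2.98 without cells with Rag1, Dntt or Cd8a, and 1.18 to 2.62 leaving out a library, lowest without library 3. The cause of these shifts was not tested. No paired analysis was possible because the libraries are not tied to the labelled samples and each group has 1 sample.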
